A study of Mus musculus with 2 samples.

Results

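The cytosolic ribosomal protein genes were described across 1 wild-type and 1 c-Maf knockout array of mouse fetal liver macrophages. A gene was taken where a probe set carried its symbol alone and the symbol was Rpl or Rps followed by a number (with an optional a, l or x), or Rplp0 to Rplp2. Kinases of the Rps6k family, pseudogenes and mitochondrial ribosomal protein genes were left out. This gave 45 of 18193 genes, 21 of the small and 24 of the large subunit, read by 98 probe sets. Each gene was represented by the probe set with the highest mean signal over both arrays. Read letter by letter, the rule leaves out genes such as Rpsa, Fau, Rpl7l1, Rpl22l1 and Rps3a1. A further 29 ribosomal protein genes, among them Rpl5 and Rplp1, appeared only on probe sets annotated with several symbols and were not named from those.

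The cells came from C57BL/6J fetuses at E15.5, either c-Maf+/+ (wild type) or c-Maf-/- (knockout), and were sorted as positive for both Mac-1 and F4/80, with no other treatment. The sources used here do not give the number of fetuses behind each array or the part of the gene that was deleted. c-Maf is a transcription factor of the basic leucine zipper class encoded by Maf. With 1 array per genotype there is no test, standard error or p-value, and every value describes these arrays only.

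The cytosolic ribosome has a small subunit, which reads the messenger RNA, and a large subunit, which joins amino acids into protein. Each ribosomal protein is needed in about the same number of copies, and in mammals their messenger RNAs share a terminal oligopyrimidine (TOP) tract. This run of C and T bases starts with a C at the first transcribed base, and through it mTOR signalling and Larp1 set translation of the whole group together. Red cell production is sensitive to ribosome shortage: loss of 1 copy of any of several ribosomal protein genes causes Diamond-Blackfan anemia in humans. Fetal liver macrophages sit at the centre of the erythroblastic islands where red cells mature.

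The RefSeq promoter table (GRCm38.p6) held 39 of the 45 genes, with 47 annotated starts. Of these genes, 8 (20.5%) had a C at an annotated start followed by at least 4 pyrimidines, against 2.98% of the 10858 measured genes in that table. The windows of these 8 genes are shown because they carry this tract, which was not part of the rule that chose the group. Each covers 20 bases before and 20 bases from the annotated start, on the coding strand, with the pyrimidines from the start in capitals.
Rpl14: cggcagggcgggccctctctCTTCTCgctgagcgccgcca
Rpl35: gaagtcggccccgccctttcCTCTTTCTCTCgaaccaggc
Rpl38: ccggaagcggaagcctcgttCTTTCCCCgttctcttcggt
Rplp2: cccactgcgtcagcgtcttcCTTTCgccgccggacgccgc
Rps6: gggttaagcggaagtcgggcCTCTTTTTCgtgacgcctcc
Rps10: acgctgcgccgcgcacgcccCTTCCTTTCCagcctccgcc
Rps18: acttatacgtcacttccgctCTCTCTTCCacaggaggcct
Rps27: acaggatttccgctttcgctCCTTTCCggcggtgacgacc

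These windows lie at chr9:120571497-120571536 on the plus strand (Rpl14), chr2:39005112-39005151 on the minus strand (Rpl35), chr11:114668560-114668599 on the plus strand (Rpl38) and chr7:141447631-141447670 on the plus strand (Rplp2). The others lie on the minus strand, at chr4:86857348-86857387 (Rps6), chr17:27635225-27635264 (Rps10), chr17:33955646-33955685 (Rps18) and chr3:90213629-90213668 (Rps27). The tract ran for 11 bases in Rpl35, 10 in Rps10 and 5 in Rplp2. An annotated start can differ by a few bases from the one a cell uses, so a wider measure was taken too: a run of at least 8 pyrimidines within 20 bases of a start was present in 19 of 39 genes (48.7%), against 19.1% of measured genes.

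The promoters (250 bases before to 50 bases after the start) were also searched on both strands for 4 motifs. The ETS-type site CCGGAAG, of the kind bound by GABP, was present in 19 of 39 genes (48.7%) against 18.0% of measured genes. Among genes past 2-fold level-adjusted, it was present in Rpl11, Rpl37 and Rpl39, which were higher, and in Rps25, which was lower. Rpl11 is shown as 1 example of these. Its site lay just downstream of the annotated start (chr4:136053374-136053413, minus strand, same window, site in capitals).
Rpl11: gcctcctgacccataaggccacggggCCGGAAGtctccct

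The YY1-type motif AAGATGGC was found in 3 genes (7.69% against 4.75%) and the GC box GGGCGG in 21 (53.8% against 63.1%). TGCTGAC, only a part of the Maf recognition element that large Maf proteins bind, was found in 0 of 39 against 4.78% of measured genes. The whole element was not searched for. These are letter matches in the windows only. The 8 genes with a C-start tract had a median level-adjusted log2 ratio of 0.07 and the other 29 measured genes in the table one of 0.54, with ranges that overlapped (-0.996 to 0.80 and -1.15 to 1.48). Of those 8, Rpl38, Rplp2 and Rps18 were also among the brightest genes of the group. With and without the wider pyrimidine run the medians were 0.26 and 0.48. They were 0.36 and 0.14 for the ETS-type site, 0.07 and 0.35 for the YY1-type motif, and 0.38 and 0.25 for the GC box. None of these differences was tested.

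Signals were not at a common level on the arrays: the median over all probe sets was 4.73 in wild type and 2.98 in knockout. Values were therefore read on 2 scales, as deposited and after quantile normalization of both arrays, the latter called level-adjusted; log2 ratios are knockout over wild type throughout. Values under a floor of 3.70 (deposited) or 3.75 (level-adjusted), the median of all values, were raised to it. The bacterial hybridisation controls had a median log2 ratio of 0.24 over 18 probe sets, and probe sets at the 3′ end of Actb were 13.3 times as bright as those at the 5′ end in wild type and 6.05 times in knockout (1.83 and 0.90 for Gapdh); the part of either in the ribosomal protein values was not tested. The brightest of 6 Maf probe sets read 47.6 with wild-type RNA and 0.219 with knockout RNA, at least 12.9-fold lower as deposited. All 6 were dimmer in knockout; 5 were above the floor in wild type and 0 in knockout, most of them near it, and with means over probe sets Maf had a deposited log2 ratio of -1.51. Of the antigens used for sorting, Adgre1 (F4/80) read 71.4 and 48.1 and Itgam (Mac-1) 5.76 and 3.94, both above the floor, though Itgam only just so in knockout.

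Ribosomal protein genes kept more of their deposited signal in the knockout than most genes. Of the 45 genes, 43 were at or above the floor on both arrays, and 5 of these were at least 2-fold lower as deposited (11.6%), where 39.8% of the 13479 measured genes were. None was at least 2-fold higher, against 1.19% of all genes. The median log2 ratio was -0.41 (quartiles -0.82 and -0.14) against -0.79 for all measured genes, and 31 of the 43 lay above that all-gene median. The summed signal of all 45 genes was 66898 in wild type and 46300 in knockout, 0.692 of the wild-type value, while that of all 18193 genes was 0.492 of it. Their share of the summed signal was thus 8.61% in wild type and 12.1% in knockout. Every cell type expresses these genes, so in such sorted bulk RNA fewer cells of a type and less RNA per cell cannot be told apart.

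On the level-adjusted scale most of them had ratios above 0. Of 43 measured genes, 32 (74.4%) were above 0, against 50.4% of all genes, and the median was 0.36 (SD across genes 0.59) against 0.01. Rps25 was at least 2-fold lower, 1 gene of 43, where 9.05% of the 13290 genes measured on this scale were. Rpl39, Rpl11 and Rpl37 were at least 2-fold higher, 3 of 43, where 8.34% of all genes were. Neither share exceeded its background, so these counts are no result about the group.

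**Figure D1:**
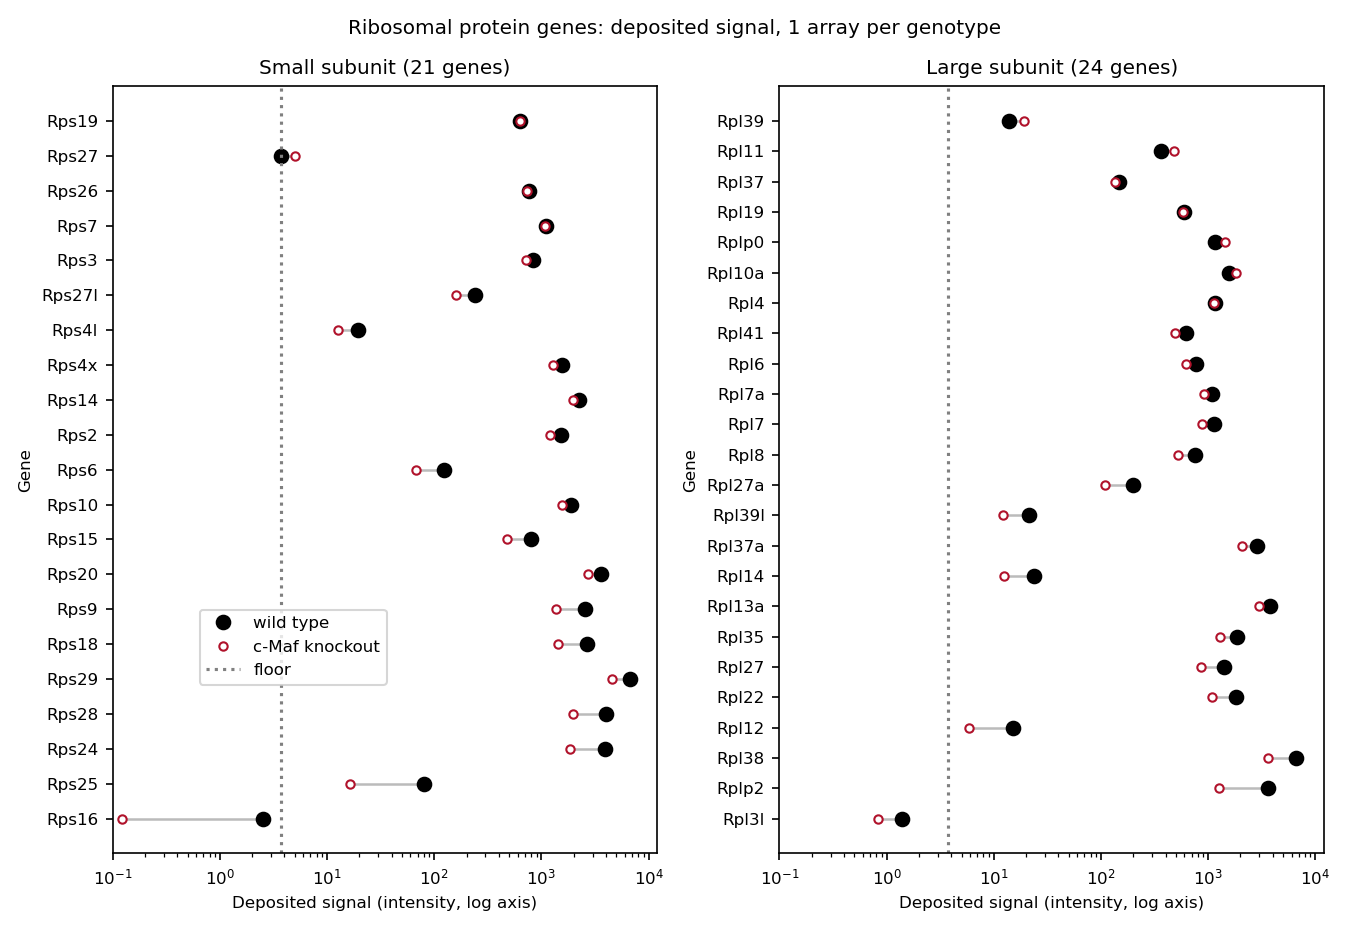
Deposited signal (x axis, intensity, log scale) of each gene on the wild-type array (filled) and the knockout array (open), small subunit on the left and large subunit on the right, ordered by level-adjusted log2 ratio. The dotted line is the floor of 3.70; Rps16 and Rpl3l lie below it on both arrays and are placed last, without a ratio. Most pairs lie close together on the log scale, and Rps25 and Rplp2 have the widest gaps among genes above the floor.

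The position of the group depended on how bright its genes were. In the brightest of 5 equal signal bins, from a mean signal of 46.6, the 37 ribosomal protein genes had a median of -0.35 as deposited and 0.36 level-adjusted, and the 1811 other genes -1.35 and -0.20. Below a signal of 100 the 8 ribosomal protein genes did not stand above others as deposited, with a median of -0.83 against -0.75 for 12609 other genes. Level-adjusted, these medians were 0.28 and -0.01. Between signals of 500 and 1000 the level-adjusted median was 0.62 for 9 ribosomal protein genes and -0.41 for 95 other genes. Between 1000 and 2000 it was 0.37 for 12 and -0.70 for 41. At 2000 and above the order turned, with -0.41 for 10 ribosomal protein genes and -0.11 for 12 other genes. Of those 10, Rps18, Rps24, Rps28, Rps29, Rpl38 and Rplp2 were below 0, and Rps14, Rps20, Rpl13a and Rpl37a above it.

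**Figure D2:**
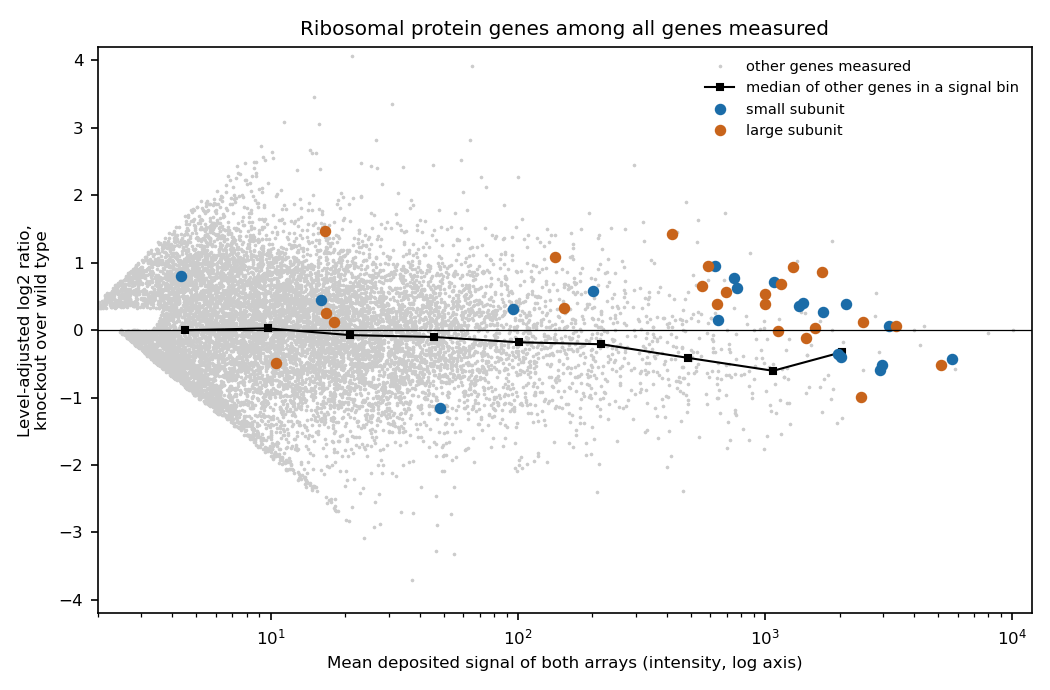
Level-adjusted log2 ratio (y axis) against the mean deposited signal of both arrays (x axis, intensity, log scale) for all measured genes (grey), with small subunit genes in blue and large subunit genes in orange. The black line joins medians of the other genes in signal bins. Most ribosomal protein genes between 100 and 2000 lie above that line, and the 10 genes at 2000 or more have a median of -0.41.

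Small subunit genes had a median of -0.48 as deposited and 0.33 level-adjusted over the 20 measured. The lowest was Rps25, whose protein lies on the head of the small subunit and serves initiation on certain viral RNAs. Its only single-symbol probe set was dim and read 80.8 with wild-type RNA and 16.4 with knockout RNA. This was 4.92-fold lower as deposited and 2.23-fold lower level-adjusted. Probe sets that list Rps25 among several symbols were not used for this value.

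Bright genes of the small subunit followed. Rps24 went from 3942 to 1858, 2.12-fold lower as deposited and -0.59 level-adjusted. Rps28, whose protein sits near the exit of the messenger RNA channel, went from 3974 to 1982 (2.01-fold lower, -0.52 level-adjusted). Rps29, a small zinc-binding protein, went from 6770 to 4605 (-0.56 as deposited, -0.43 level-adjusted). With Rps18 (2639 and 1414, -0.40) and Rps9 (2560 and 1380, -0.36), these were the 6 small subunit genes below 0 after level adjustment, and each was dimmer in knockout on both scales.

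At the other end stood Rps19, the gene most often mutated in Diamond-Blackfan anemia, which read 628.3 with wild-type RNA and 627.7 with knockout RNA (0.95 level-adjusted). Rps26, another gene linked to that anemia, read 766 and 733 (0.78), and Rps7 read 1095 and 1084 (0.71). The signals of these genes were nearly equal before adjustment. Rps3, whose protein lies at the entry of the messenger RNA channel, went from 828 to 717 (0.62). Rps27 read 3.71, just above the floor, in wild type and 4.98 in knockout; after level adjustment its wild-type value was below the floor, so it was at least 1.74-fold higher. It was the 1 small subunit gene of 20 with a higher deposited signal in knockout.

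The other measured small subunit genes had level-adjusted ratios from 0.06 to 0.59 and were dimmer in knockout as deposited. Rps6, whose protein is phosphorylated by the S6 kinases downstream of mTOR, went from 123 to 67.2 (0.31). Rps15 went from 804 to 479 (0.15) and Rps20 from 3626 to 2722.5 (0.06). Rps2 (1517.5 and 1213, 0.36), Rps4x (1544 and 1288, 0.40), Rps14 (2258 and 1989, 0.39) and Rps10 (1875 and 1541, 0.26) lay close to the median of the group. Rps16 was below the floor on both arrays (2.55 and 0.122) and has no ratio.

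Large subunit genes had a median of -0.35 as deposited and 0.38 level-adjusted over the 23 measured. The difference between the subunits, -0.13 as deposited and -0.05 level-adjusted, was not tested; genes within each subunit had an SD of 0.57 (small) and 0.52 (large) as deposited. Among large subunit genes with a signal over 100 the highest was Rpl11, whose protein joins Rpl5 in a complex that can bind and restrain Mdm2 and so stabilise p53. It went from 359 to 478, 1.33-fold higher as deposited and 2.70-fold higher level-adjusted. Rpl10a (1562 and 1819, 0.86) and Rplp0 were the other genes with a signal over 100 that were higher in knockout before any adjustment.

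Rpl37 went from 145.9 to 135.9, nearly equal as deposited and 2.11-fold higher level-adjusted. Rpl19 (590.1 and 581.8, 0.95) and Rpl4, whose long internal loop lines the exit tunnel (1164 and 1145, 0.68), were also nearly equal before adjustment. Below these came Rpl41, which encodes a very short peptide (620.4 and 492, 0.66), and Rpl6 (770 and 620, 0.56), Rpl7a (1079 and 919, 0.54), Rpl7 (1122 and 879, 0.38) and Rpl8 (755 and 519, 0.38), around the median of the group.

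A further set had lower deposited signals in knockout and level-adjusted ratios near 0. It held Rpl37a (2870 and 2082, 0.12), Rpl13a (3768 and 2987, 0.07), Rpl35 (1876 and 1291, 0.03) and Rpl27 (1392 and 864, -0.01). Rpl27a went from 197 to 109.8 (0.33) and Rpl22, which is dispensable for most translation but needed by developing lymphocytes, from 1819 to 1097 (-0.11). Rpl38, whose loss in mice alters the patterning of the axial skeleton, went from 6648 to 3631 (-0.52). Rpl12 went from 15.2 to 5.87 (2.60-fold lower as deposited, -0.49 level-adjusted) and Rpl14 from 23.8 to 12.4 (0.11), both dim.

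The stalk of the large subunit, which recruits elongation factors, is built from Rplp0 and dimers of Rplp1 and Rplp2. Its measured genes stood at opposite ends of the group. Rplp0, the base of the stalk, went from 1158 to 1430.2 (0.30 as deposited, 0.93 level-adjusted). Rplp2 went from 3629 to 1273, the lowest ratio of the large subunit (-1.51 as deposited, 2.85-fold lower), and level-adjusted it was 1.99-fold lower, just short of the threshold. Each was read by 1 single-symbol probe set, unsuffixed for Rplp0 and with the suffix _a for Rplp2.

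Of the 23 genes linked to Diamond-Blackfan anemia, with Rps14 of the 5q- syndrome counted among them, 14 were measured. Their median was -0.35 as deposited and 0.32 level-adjusted, close to that of the whole group. As deposited, 2 of 14 (14.3%) were at least 2-fold lower, Rps24 and Rps28, against 39.8% of all genes; with means over probe sets Rps24 was at -0.37 and no longer past 2-fold. Level-adjusted 1 of 14 (7.14%), Rpl11, was at least 2-fold higher, near the 8.34% of all genes. After Rpl11, Rps19, Rps27 (near the floor), Rps26 and Rps7 had the highest level-adjusted ratios (0.95 to 0.71), and Rps24, Rps28, Rps29 and Rpl27 were below 0.

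Some ribosomal proteins have a close relative encoded by a second gene. Rps27l, a p53-responsive relative of Rps27, went from 242.5 to 161 (-0.59 as deposited, 0.59 level-adjusted), the opposite of the deposited direction of Rps27. Rps27 itself read near the floor on both arrays (3.71 and 4.98), so its direction is uncertain. Rps4l went from 19.3 to 12.7 (-0.60 and 0.44), in the same direction as Rps4x on both scales. Rpl39l, known for expression in testis, went from 21.2 to 12.3 (-0.79 and 0.25), whereas Rpl39 went from 13.97 to 19.1 (0.45 and 1.48, the highest ratio of the group). Rpl3l, known from striated muscle, was below the floor on both arrays (1.39 and 0.834). Outside the rule, Rpl22l1 went from 692 to 412 (0.23 level-adjusted, against -0.11 for Rpl22) and Rpl7l1 from 69.5 to 32.3 (-1.11 as deposited and 0.07 level-adjusted, against -0.35 and 0.38 for Rpl7).

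The only available yardstick for these ratios is the spread between probe sets of the same gene. Over all genes it was 0.63 (SD in deposited log2 ratio, 3417 probe sets of 1420 genes with a signal of at least 14.8), and over the ribosomal protein genes 0.46 (58 probe sets of 19 genes). It leaves out differences between animals, sorts and arrays. It is no replicate error.

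Among 19 genes with several probe sets above the floor on both arrays, 9 had level-adjusted ratios on both sides of 0 and 8 had a gap of at least 1. Rps28 had the tightest probe sets, from -0.52 to -0.48, and Rps29 was below 0 on all 3 (-0.51 to -0.34). In Rps24 the brightest probe set was at -0.59 and the other 4 between 0.12 and 0.46, so its place among the low genes rested on 1 probe set; as deposited all 5 were below 0 (-1.09 to -0.40). Rps18 was similar, with -0.40 for its brightest and 0.86 and 0.91 for the others. For Rps9 the brightest was at -0.36 and the other at 0.55, while a dim probe set above the floor in wild type only was at -1.45. Rpl41 ran from -0.67 to 1.01, Rpl27 from -0.55 to 1.19, Rps10 from -0.16 to 0.87, Rpl13a from -0.03 to 1.11 and Rpl37a from 0.05 to 1.31. Another probe set of Rpl7 reached 1.40.

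**Figure D3:**
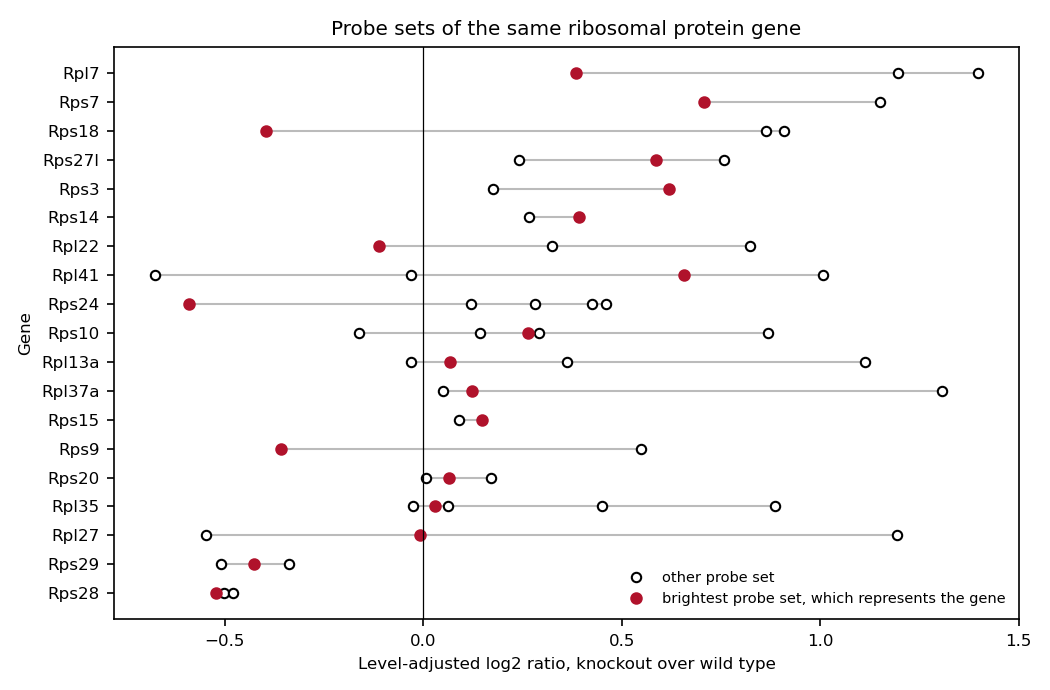
Level-adjusted log2 ratio (x axis) of every probe set above the floor on both arrays, for the 19 genes with at least 2 such probe sets (y axis, ordered by median). The filled point is the brightest probe set, which represents the gene. Rps28 and Rps29 lie below 0 with all their probe sets, and 9 genes have probe sets on both sides of 0.

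Many of these probe sets are not specific to a single transcript by design. Of the 98, 70.4% carried a suffix (_a, _s or _x) that marks probes shared between transcripts, against 22.8% of all probe sets with 1 symbol; ribosomal protein genes have many processed pseudogenes. Without suffixed probe sets, 20 genes were left with a median of -0.77 as deposited, against -0.73 for all genes treated the same way. Over all signal levels together, the group thus no longer stood above other genes on that scale. Level-adjusted, the 19 genes left had a median of 0.25 against 0.02. Unsuffixed probe sets with a signal of at least 100 included 6 of ribosomal protein genes (Rplp0, Rpl19, Rpl22, Rpl27, Rpl27a and Rps15) and 305 of other genes. As deposited, the median was -0.19 for those 6 and -1.27 for the 305. Level-adjusted, the 6 had ratios from 0.15 to 1.19, median 0.88, and the 305 had a median of -0.10. The 110 probe sets that list a ribosomal protein gene among several symbols had, over the 103 measured, a median of -0.43 as deposited and 0.41 level-adjusted. They also list 15 of the 45 genes, among them Rps16, Rps25, Rps27, Rpl12, Rpl14 and Rpl39, whose own single-symbol probe sets were dim.

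Genes that build ribosomes or act with them had lower medians as deposited than the ribosomal protein genes. These lists also differed in brightness. A signal of at least 100 was reached by 35 ribosomal protein genes, whereas most assembly factors and RNA polymerase I genes were dimmer. The part of brightness in the differences was not tested. Among all genes 39.8% were at least 2-fold lower as deposited, and 9.05% lower and 8.34% higher level-adjusted; the counts below stand beside these shares. Of 51 measured assembly factors, 25 (49.0%) were at least 2-fold lower as deposited (median -0.99). Level-adjusted, their median was 0.04, with 1 of 51 (1.96%) at least 2-fold lower and 2 (3.92%) higher. Rrp12, needed for export of pre-ribosomes, read 24.9 and 1.68, the latter under the floor, and was at least 4.62-fold lower level-adjusted. Nop14 read 4.69 and 11.8, at least 4.53-fold higher level-adjusted, and was the 1 assembly factor higher past 2-fold as deposited. Nob1, the nuclease that matures small subunit RNA, read 10.2 and 11.9 (1.16). Nop58, a box C/D ribonucleoprotein (34.4 and 8.99, -0.88), Tsr1 (101.8 and 24.99, -0.87) and Heatr1 (67.1 and 17.4, -0.80) had the lowest ratios among those above the floor on both arrays.

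RNA polymerase I genes, which transcribe ribosomal RNA, had 8 of 14 members (57.1%) at least 2-fold lower as deposited (median -1.22). Level-adjusted, the median was -0.26, with 2 lower (14.3%) and 1 higher (7.14%). Cd3eap, a polymerase I subunit, went from 19.8 to 4.90 (-1.12) and Taf1a from 11.5 to 0.606, under the floor (at least 2.27-fold lower). Taf1b, of the same promoter selectivity factor as Taf1a, went from 6.99 to 9.29 (1.28). Twistnb (65.8 and 15.9, -0.91) and Taf1c (12.9 in both, 0.98) were within 2-fold on that scale.

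Of 31 initiation factors, 17 (54.8%) were at least 2-fold lower as deposited (median -1.08). Level-adjusted, 3 were lower (9.68%, near the share of all genes) and 5 higher (16.1%), with a median of 0.06. Eif2b4, a subunit of the exchange factor for initiation factor 2, was lowest (88.6 and 16.3, -1.30), with Eif4g2 (-1.04) and Eif3i (-1.01) also past 2-fold. Eif3m (15.1 and 26.5, 1.87), Eif2b1 (9.52 and 17.1, 1.81) and Eif3h (128 and 139, 1.30) were highest, followed by the cap-binding protein Eif4e (1.12) and Eif2b5 (1.04).

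Other genes with TOP messenger RNAs lay closer to the ribosomal protein genes as deposited. Level-adjusted, their median of 0.09 lay nearer to that of all genes (0.01) than to that of the ribosomal protein genes (0.36). Eif4b, Eif3e, Eif3f, Eif3h and Npm1 also count in the lists above. Of 15 measured, 4 (26.7%) were at least 2-fold lower as deposited (median -0.63), and level-adjusted 0 were lower and 1, Eif3h, higher (median 0.09). The elongation factor genes Eef2 (366 and 344, 0.99) and Eef1a1 (2773 and 2866, 0.56) and the initiation factor gene Eif3f (275 and 221, 0.85) were near equal or modestly lower before adjustment. Rpsa had 7707 and 8285 (0.10 as deposited, -0.05 level-adjusted) and Fau 1584 and 1220 (-0.38 and 0.27). Both are ribosomal protein genes outside the rule and are counted among the 15.

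Of 13 measured genes of mTOR signalling, Larp1 and Myc, 5 (38.5%) were at least 2-fold lower as deposited (median -0.82), near the 39.8% and -0.79 of all genes. Level-adjusted, 1 was lower (7.69%) and 2 higher (15.4%), with a median of 0.35. Mycn went from 11.3 to 0.650, under the floor (at least 2.23-fold lower). Rheb, the GTPase that activates mTOR, went from 59.4 to 66.7 (1.35), Max from 6.54 to 7.72 (1.07) and Larp1 from 77.1 to 25.4 (-0.44). Eif4ebp1 went from 192 to 146 (-0.40 as deposited, 0.77 level-adjusted) on its brightest probe set, which is suffixed; the brightest unsuffixed one went the other way as deposited, from 23.0 to 40.3 (0.81). Mitochondrial ribosomal protein genes, which form a separate ribosome, had 33 of 76 measured (43.4%) at least 2-fold lower as deposited (median -0.89, 0.19 level-adjusted). Proteasome subunit genes had 18 of 47 (38.3%; median -0.82, 0.34 level-adjusted, near the 0.36 of the ribosomal protein genes on that scale). None of these differences between lists was tested.

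**Figure D4:**
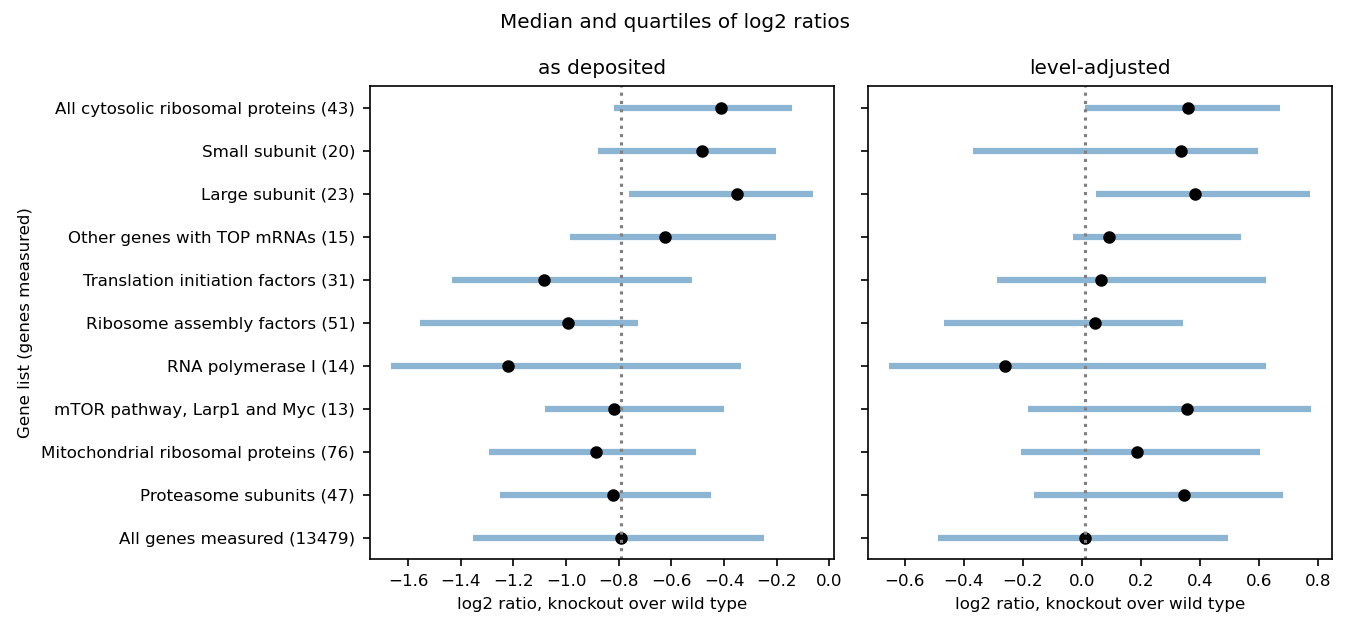
Median (points) and quartiles (bars) of log2 ratios, knockout over wild type (x axis), for the ribosomal protein genes and other gene lists (y axis, genes measured as deposited in brackets), as deposited on the left and level-adjusted on the right. The dotted line is the median of all measured genes, -0.79 and 0.01. The ribosomal protein genes lie at -0.41 and 0.36.

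The signal of ribosomal protein genes cannot be assigned to macrophages alone, and markers of other cell types were read beside them. Of 23 macrophage markers, 22 were on the array, 21 at or above the floor in wild type and 19 in knockout; their summed signal was 3637 and 1788. The erythroid markers (14 on the array, 13 above the floor on both) summed to 8711 and 5557, the granulocyte markers (12, all above the floor) to 15162 and 8764, and the hepatoblast markers (15 on the array, 11 and 13 above the floor) to 399 and 612. The 9 stem and progenitor markers, 9 above the floor in wild type and 7 in knockout, summed to 619 and 109. The summed signal in knockout was thus 0.692 of wild type for ribosomal protein genes, 0.492 for macrophage, 0.638 for erythroid, 0.578 for granulocyte, 1.54 for hepatoblast and 0.176 for progenitor markers, and 0.492 for all genes. Single genes carried much of these sums: Laptm5 held 45.5% of the macrophage sum in wild type, Hbb-y 81.1% of the erythroid, S100a9 32.5% of the granulocyte, Afp 52.3% of the hepatoblast and Myb 61.6% of the progenitor sum. Without those genes the ratios were 0.556, 0.550, 0.484, 1.81 and 0.275. Median log2 ratios over the measured markers were -0.53 (macrophage), -0.61 (erythroid), -1.16 (granulocyte), 0.68 (hepatoblast) and -2.09 (progenitor) as deposited, and 0.18, 0.30, -0.04, 1.52 and -0.996 level-adjusted. Macrophage markers went both ways, with 5 of 21 higher in knockout as deposited, C1qa (0.89) and Cd68 (0.43) among them. The other 16 were lower, the lowest being Vcam1 (-2.64), Mpeg1 (-1.72) and Mertk (-1.64). The part of these cell types in the ribosomal protein values was not tested.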

How the data were processed

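The authors deposited 1 linear intensity per probe set and array (45101 probe sets, 2 arrays) from biotin-labelled total RNA on Affymetrix GeneChips, per the labels' protocols; their summarisation and scaling are not given in the sources used here. Probe sets were named from the platform annotation, with 34741 of 34945 single-symbol probe sets matched through Entrez identifiers to GRCm38.p6; 932 with several symbols were not used to name genes. The main scale was the intensity as deposited. Level-adjusted values came from quantile normalization with quantiles averaged on the log2 scale. Both were floored at the 50th percentile (3.70 and 3.75), genes at or above it on at least 1 array were kept, and 2-fold counts were made. Python 3.11.15, numpy 2.4.6 and pandas 2.3.3 were used, and the ratios were tested on simulated data.

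The genes and lists were chosen with earlier results of these data known. Named genes were Maf; stalk genes; paralog pairs; the 6 lowest and 6 highest level-adjusted ratios; all genes past 2-fold; anemia-linked genes; the 5 widest probe set gaps; genes below the floor; and up to 4 per other list. Other ribosomal protein genes were added for completeness, as were the other genes of short counts. Promoters came from RefSeq (GRCm38.p6). Protein comparisons that had been planned were not run. Alternatives covered scaling, floor, probe set choice and threshold; the closing section gives their effect.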

Additional observations from a re-analysis of the deposited data

How the results depend on the processing

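With 1 array per genotype, no alternative carries a test. The direction of the median log2 ratio of the group depended on the scaling. It was -0.41 as deposited, -0.77 without suffixed probe sets and -0.65 with hybridisation controls as reference, but 0.25 with equal medians, 0.36 after quantile normalization (also with the probe set chosen anew), 0.52 with centred ratios, 0.25 after quantile normalization without suffixed probe sets and 0.38 with it and means over probe sets. Relative to the median of all genes, the group lay higher under 14 of 15 settings, by up to 1.003 with a signal of at least 100. The exception was the deposited scale without suffixed probe sets (-0.03), where the lead of the group was lost over all signal levels together.

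Counts at least 2-fold lower and higher were 5 and 0 as deposited, 1 and 2 with equal medians, 1 and 3 after quantile normalization (also with the probe set chosen anew or means over probe sets), 1 and 5 with centred ratios, 12 and 0 with hybridisation controls, and 3 and 2 of 19 after quantile normalization without suffixed probe sets. With a signal of at least 100 they were 3 and 0 of 35, and as deposited 17 genes were 1.5-fold lower and 1 gene 3-fold lower. Among all genes 39.8% were lower and 1.19% higher as deposited, 16.3% and 4.74% with equal medians, 8.22% and 13.9% with centred ratios, 49.5% and 0.765% with hybridisation controls, 8.71% and 8.64% after quantile normalization without suffixed probe sets, and 68.1% and 0.232% with a signal of at least 100. At 1.5-fold 59.8% and at 3-fold 16.6% of all genes were lower as deposited. Rps24, lower as deposited, turned to 0.12 after quantile normalization without suffixed probe sets and 0.29 with means over probe sets. Rpl7l1 turned to 0.070 after quantile normalization, also with the probe set chosen anew or without suffixed probe sets, and the log2 ratio of Heatr1 to 0.045 with it and means over probe sets. The difference between subunits ran from -0.43 to -0.03. The settings with a signal minimum of 100, and those that combine quantile normalization with another probe set choice, were added after the data were seen. No paired analysis was possible because each genotype has 1 array. The number of arrays limits precision.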

Other observations

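Genes of the p53 pathway, which responds to disturbed ribosome assembly through Rpl5 and Rpl11, were measured on the same arrays for 13 of 17 listed genes. As deposited 4 (30.8%) were at least 2-fold lower, against 39.8% of all genes (median -0.79, as for all genes). Level-adjusted 1 was lower (7.69%, against 9.05%) and 2 were higher (15.4%, against 8.34%), with a median of 0.35. Cdkn1a, the cell cycle inhibitor p21, went from 11.9 to 20.2 (1.77 level-adjusted) and Plk2 from 3.20, under the floor, to 6.92 (at least 2.52-fold higher). Mdm4, a p53 inhibitor, went from 17.8 to 3.87, near the floor (-2.20 as deposited, -1.35 level-adjusted; with means over its 4 probe sets -0.98 and -0.44, no longer past 2-fold). Btg2 went from 36.3 to 10.5 (-0.72) and Trp53inp1 from 13.1 to 12.4 (0.91). Mdm2, added here after its values were seen, went from 111 to 70.5 (0.52).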
